A study of Mus musculus with 2 samples.

Results

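49 genes that carry growth factor signals from the cell surface through Ras and the MAP kinases were followed in mouse glioblastoma stem cells with and without an shRNA against the transcription factor Gli2. They are 17 receptor tyrosine kinases, 11 ligands of such receptors, 10 feedback inhibitors, 4 output genes and 7 Ras-MAPK components. The genes were listed by name and found on the arrays through the RefSeq accessions of the probes. All 49 had at least 1 probe, out of 23784 named genes, and together they had 84 of 34560 named probes. The cells are a single line, grown as neurospheres, that was set up from murine glioblastomas induced with the Sleeping Beauty (SB) transposon. One group was stably transduced with a lentiviral non-target control shRNA and the other, called the knockdown below, with a lentiviral Gli2 shRNA. Both groups grew in serum-free Neurobasal medium with B27, N2, and EGF and bFGF at 10 ng/ml. Each group had 1 array, so there is no replicate check and no test, and every error given is the scanner software's own error for the spots. How far other cultures of the line would vary is unknown, and the sequences of the shRNAs are not given in the sources used here.

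Receptor tyrosine kinases bind growth factors outside the cell, pair up and phosphorylate each other. Adaptors then recruit exchange factors that load Ras proteins with GTP, and active Ras starts a relay of Raf, Mek (Map2k1, Map2k2) and Erk kinases. Erk activity induces its own brakes, among them the Sprouty and Spred proteins and the Dusp phosphatases, together with Ets factors of the Etv group, so the transcripts of these genes are widely used as a readout of the relay. Neural stem cell cultures depend on EGF and bFGF, and receptors of this class are often amplified or overactive in glioblastoma.

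Gli2 itself was at 48.7% of its control level, with control and knockdown signals of 98.1 and 57.9 (scaled log2 difference -1.04 ± 0.22, 1 probe; -0.64 after normexp background correction). Normexp was run with an offset of 50 added to every signal. By design this compresses the differences of dim genes, so the normexp values below are no independent check of such genes. The arrays share 1 slide and 1 scan. A probe counted as measured where the scanner software called it well above background, as it did for 59.5% of the control and 57.1% of the knockdown probes. Of 11 neural stem and glioma markers, 10 were measured on each array. Of 8 microglia and macrophage markers, 6 and 4 were measured, with a summed signal of 5534 and 6322 that came mainly from Itgam (4694 and 5413), while Ptprc and Cx3cr1 were not well above background on either array. Of 7 endothelial markers 2 were measured on each array (summed signals of 133 and 134). So were 3 of 7 fibroblast and mural markers (7849 and 8311, mainly Acta2), all 5 neuronal markers (23099 and 21890, mainly Map2) and 4 of 6 oligodendrocyte markers (477 and 499). Of 5 astrocyte markers 5 and 4 were measured (7075 and 7446, mainly Slc1a3). These sums are unscaled, while the arrays' 75th percentiles were 329.3 and 399.0. After scaling, the median log2 difference of markers measured on both arrays was -0.38 for oligodendrocyte, -0.33 for astrocyte and -0.26 for endothelial markers. It was -0.19 for fibroblast and mural, -0.14 for neural stem and glioma, -0.10 for microglia and macrophage and 0.05 for neuronal markers. Each median rests on 2 to 9 genes. The part of such cells in the values below was not tested, and in a bulk culture fewer cells of a type and less RNA per cell cannot be told apart.

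The growth factor and Ras-MAPK genes were at similar levels in both arrays. 40 of the 49 were measured on both arrays, 4 on 1 array and 5 on neither. None of the 40 was 2-fold higher or lower, a size that 3.63% of the 14563 genes measured on both arrays reached (1.84% higher and 1.79% lower). Of the 4 measured on 1 array, none had a lower bound past 2-fold, which was the case for 31.1% of all genes measured on the knockdown array alone and for 18.2% of those measured on the control array alone. Past 1.5-fold by this bound lay 1 of the 4, Dusp5 (higher), against 50.2% and 49.9% of those genes. Past 1.5-fold lay 3 members, the receptor gene Kit (higher) and the ligand gene Fgf1 and the Ras gene Nras (lower), where 12.5% of all genes lay past 1.5-fold (6.0% higher and 6.54% lower). 18 of the 40 lay above 0 and 22 below. Their median scaled log2 difference, taken as Gli2 shRNA minus control after each array was scaled to the 75th percentile of its probes, was -0.01, beside 0.00 for all genes. Members spread less than genes at large, with an SD over genes of 0.32 against 0.42. They were also brighter: when genes were split by brightness into 5 equal bins, 26 of the 40 fell in the 2 brightest, where 6.7% and 3.2% of genes lay past 1.5-fold, against 24.7% in the dimmest. The shares and ranges of all genes given below cover every bin. For a bright member they may therefore overstate how common its difference is among genes as bright.

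**Figure D1:**
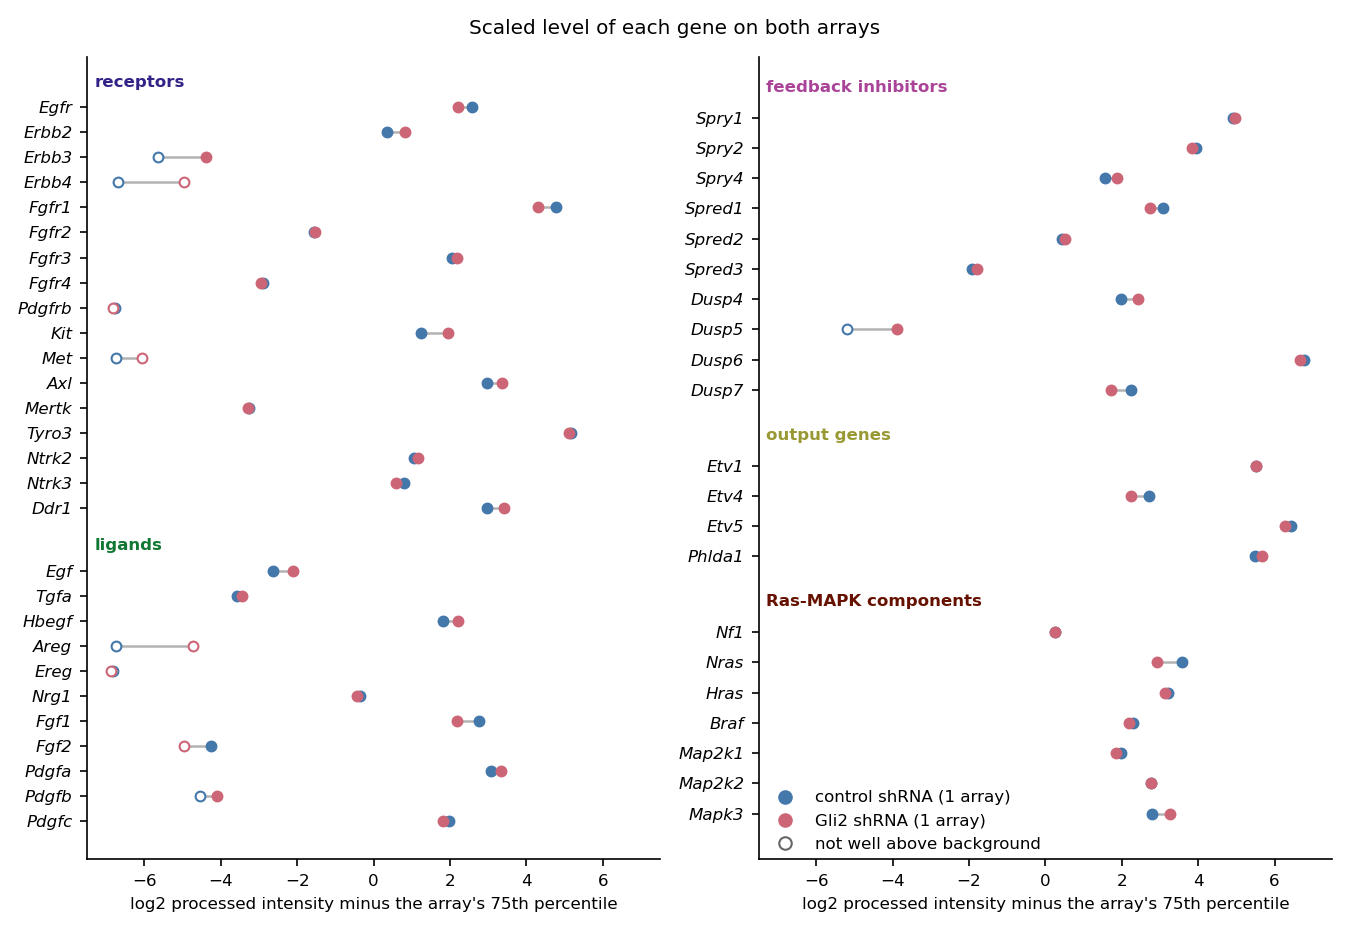
Scaled level of each of the 49 genes on the control array (blue) and the knockdown array (red), as log2 of processed intensity less that array's 75th percentile, grouped by role. Open circles are values not well above background; levels of different genes come from different probes and are not comparable with each other. Most pairs of circles lie close together, and the wide gaps belong to genes near background such as Areg and Erbb4.

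The size of these differences can be set against the error of the spots. 11 of the 40 members (27.5%) differed by more than 2 times the software error, 6 higher and 5 lower, compared with 19.7% of all genes. The higher ones were Kit, Egf, Erbb2, Mapk3, Ddr1 and Dusp4, and the lower ones Nras, Fgf1, Dusp7, Etv4 and Fgfr1. The software error covers the spot and not the culture, so a difference beyond it describes these spots and not the effect of the shRNA in general. Nras is counted here by its brightest probe, while its second probe was higher (0.36). All 40 members lay inside the central 95% of differences over all genes, which ran from -0.89 to 0.89.

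**Figure D2:**
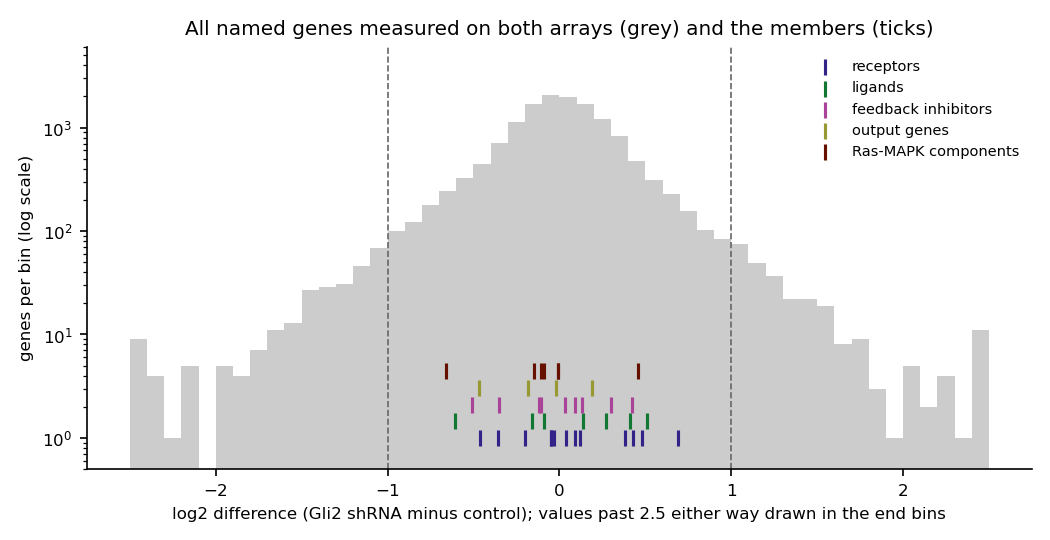
Number of named genes measured on both arrays (grey, 14563 genes, log scale) by scaled log2 difference, with the 40 members as coloured ticks at a height that only separates the roles. Dashed lines mark 2-fold; all ticks lie between them, from -0.66 (Nras) to 0.69 (Kit).

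Among the receptors for the growth factors in the medium, Egfr and Fgfr1 were slightly lower. Egfr, the receptor of EGF, had signals of 1968 (control) and 1864 (knockdown), which after scaling is a log2 difference of -0.36 ± 0.20 (RefSeq NM_207655, chromosome 11). Fgfr1 had signals of 8986 and 7913 (-0.46 ± 0.20, chromosome 8). Most of each difference comes from the scaling, since the 75th percentile of the knockdown array (399.0) was above that of the control (329.3). All 3 Egfr probes (-0.60 to -0.18) and all 4 Fgfr1 probes (-0.63 to -0.41) were measured on both arrays and lay below 0. Fgfr2 (111.2 and 138.1, difference 0.04 ± 0.21) and Fgfr3 (1373 and 1806, difference 0.12 ± 0.20) were close to 0, and Fgfr2 changed sign with normexp (-0.09). Fgfr4 was dim (44.3 and 52.0) and differed by -0.05 ± 0.25, or by 0.09 with median scaling. Differences as far from 0 as that of Egfr were found in 26.8% of all genes, and as far as that of Fgfr1 in 18.6%. Both genes are bright: past 1.5-fold lay 6.7% of genes in the brightness bin of Egfr and 3.2% in that of Fgfr1, against 12.5% of all genes.

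The other ErbB receptors ranged from measured to undetected. Erbb2, the partner receptor that binds no ligand of its own, was higher by 0.48 ± 0.20 (420.7 in the control and 709.1 in the knockdown), and its second probe gave the same 0.48. Erbb3, a neuregulin receptor with a weak kinase, was measured on the knockdown array alone (6.62 and 19.1) and was at least 1.23-fold higher. That bound was taken against the dimmest control signal still well above background, 12.8. After normexp the Erbb3 difference was 0.08. Erbb4, another neuregulin receptor, was not well above background on either array.

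Kit, the receptor of stem cell factor, was the receptor that lay past 1.5-fold. Its probe (RefSeq NM_001122733, chromosome 5) had signals of 785.3 in the control and 1538 in the knockdown, a difference of 0.69 ± 0.20 or 1.62-fold. It stayed past 1.5-fold with normexp (0.65), median scaling (0.83), quantile normalization (0.69) and cyclic loess (0.67). The filters and the mean of probes could not change the value of a bright gene with 1 probe. The deposited table nearly repeats the scaling used throughout. Of all genes, 8.99% were at least as far from 0, and Kit rests on 1 probe.

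Of the receptors of the Tam family, which clear dying cells and dampen inflammation, Axl was slightly higher and the others were level. Axl had signals of 2592 and 4101, a difference of 0.38 ± 0.20, with 0.25 on its second probe. Tyro3 (11892 and 13893, -0.05 ± 0.20) and Mertk (34.2 and 40.8, -0.03 ± 0.28) lay near 0, and both turned positive with median scaling (0.08 and 0.11). Ddr1, a collagen receptor, was higher by 0.43 ± 0.20, with 2594 in the control and 4223 in the knockdown. The neurotrophin receptors stayed near 0: Ntrk2, which binds BDNF, differed by 0.09 ± 0.20 (684.4 and 885.7). Ntrk3, the receptor of NT-3, differed by -0.20 ± 0.20 on its brightest probe and had 4 probes between -0.20 and 0.25, so it has no settled direction. Met, the receptor of hepatocyte growth factor, and Pdgfrb, a receptor of pericytes and fibroblasts, were not well above background on either array. The 13 receptors measured on both arrays had a median difference of 0.04, with 7 above 0 and 6 below; with normexp the median was -0.03.

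**Figure D3:**
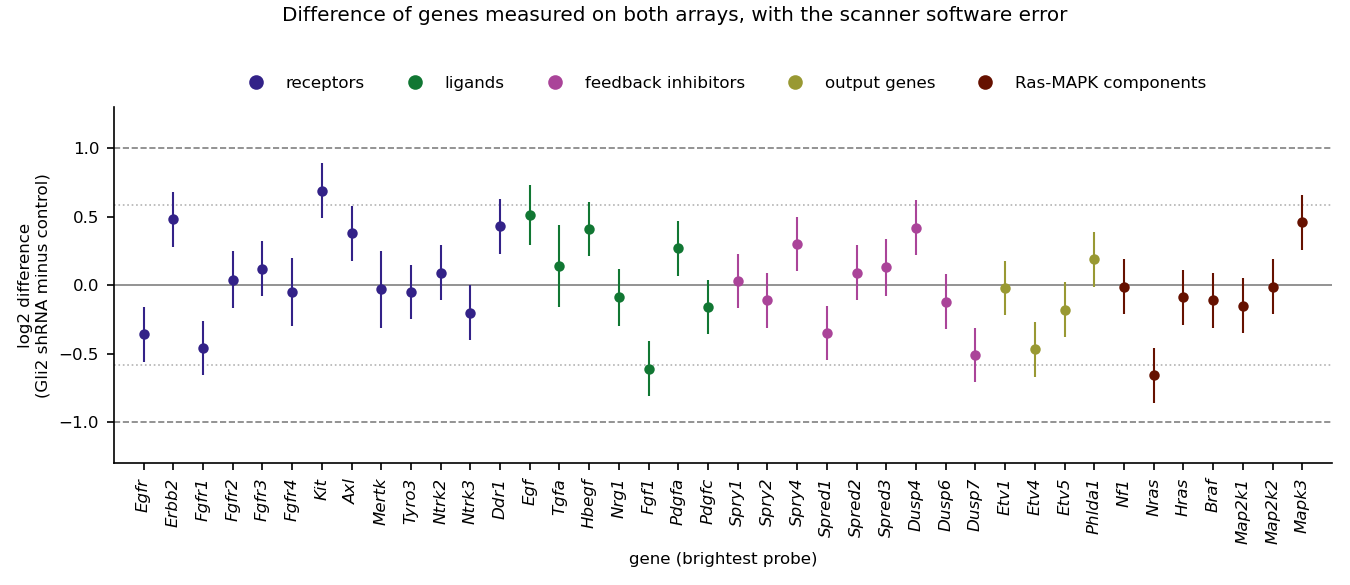
Scaled log2 difference (Gli2 shRNA minus control) of the 40 genes measured on both arrays, brightest probe, coloured by role, with bars of the scanner software error. Dotted lines mark 1.5-fold and dashed lines 2-fold; Kit, Fgf1 and Nras lie outside the dotted lines and no gene lies outside the dashed ones.

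Among the ligands, Fgf1 was lower and the Egf family members Egf and Hbegf were slightly higher. Fgf1, which activates all Fgf receptors, had signals of 2250 in the control and 1790 in the knockdown (chromosome 18), a difference of -0.61 ± 0.20 or 1.52-fold. Its 3 probes were all measured on both arrays and lay below 0, at -0.61, -0.58 and, on a dim probe (31.3 and 18.1), -1.07. Fgf1 is at the edge of the size rule: with median scaling its difference was -0.47 and no longer past 1.5-fold. Differences at least as far from 0 were found in 11.7% of all genes. Fgf2, the cells' own gene for the bFGF that the medium supplies, was near background (17.2 and 12.9). It was measured on the control array only, at least 1.37-fold lower. After normexp the Fgf2 difference was -0.27.

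Egf was dim, at 53.5 in the control and 92.0 in the knockdown, with a difference of 0.51 ± 0.22 that was 0.20 with normexp. Hbegf, a membrane-bound ligand of Egfr and a gene induced by Erk, had signals of 1159 and 1863 (0.41 ± 0.20). Tgfa, another Egfr ligand, was close to background (27.6 and 36.7, 0.14 ± 0.30; -0.16 with normexp). Areg and Ereg, 2 further Egfr ligands, were not well above background on either array. Of the Egf family, 4 members were measured on both arrays, with 3 above 0. Of all genes, 16.1% lay as far from 0 as Egf and 22.2% as far as Hbegf. Egf is in the dimmest brightness bin, where 24.7% of genes lay past 1.5-fold. Hbegf is in bin 4 of 5, where 6.7% did, so its share among genes as bright may be smaller.

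Nrg1, the neuregulin ligand of Erbb3 and Erbb4, gave probes in both directions. Its brightest probe (258.6 and 294.3) differed by -0.09 ± 0.21. Its other probes measured on both arrays gave 0.23, 0.20 and -0.62. One further probe was measured on the control array only (33.8 and 10.9) and was at least 2.70-fold lower. The probes carry accessions of different Nrg1 transcripts, with 1 accession shared by a probe that was higher (0.23) and the one that was lower by this bound, so no direction is settled for the gene. Of the Pdgf ligands, Pdgfa was higher by 0.27 ± 0.20 (2744 and 4009; 0.45 on its second probe) and Pdgfc was level (1292 and 1402, -0.16 ± 0.20). Pdgfb was near background and measured on the knockdown array alone (14.1 and 23.5), 1.37-fold higher by a bound that equals the difference itself (0.46 ± 0.41; -0.11 with normexp). The 7 ligands measured on both arrays had a median of 0.14, and of -0.10 with normexp. Tgfa moved below 0 with normexp, whose offset of 50 exceeds both its signals, so this change cannot settle the group's direction. The ligand median was 0.27 with median scaling, 0.25 with quantile normalization and 0.27 with cyclic loess. As 4 of the 7 lay above 0 and 3 below, no direction is settled for the ligands as a group.

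The feedback inhibitors, whose genes Erk activity induces, were nearly level. Of 10, 9 were measured on both arrays, 5 above 0 and 4 below, with a median of 0.03 and none past 1.5-fold. The Sprouty genes, whose products block Ras activation downstream of receptors, differed little: Spry1 had signals of 9973 and 12342 (0.03 ± 0.20) and Spry2 of 5074 and 5706 (-0.11 ± 0.20). Spry4 was at 977.1 and 1458 (0.30 ± 0.20). Spred1, a Ras inhibitor that recruits neurofibromin to the membrane, was slightly lower on both its probes (-0.35 and -0.29; 2786 and 2654 on the brighter). Spred2 (445.0 and 572.6, 0.09 ± 0.20) and Spred3 (87.7 and 116.1, 0.13 ± 0.21) were level. Spry2 turned to 0.03 with median scaling.

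The Dusp phosphatases, which remove the activating phosphates from MAP kinases, pointed in both directions. Dusp6, the cytoplasmic phosphatase of Erk and its best known transcriptional readout, was level, with 35917 in the control and 40012 in the knockdown (-0.12 ± 0.20; 0.01 with median scaling). Dusp7, a close relative of Dusp6, was lower by 0.51 on the log2 scale (-0.51 ± 0.20; 1545 and 1317). Dusp4, a nuclear phosphatase, was higher by 0.42 ± 0.20 (1311 and 2132). Dusp5, the nuclear phosphatase of Erk, was measured on the knockdown array alone (9.10 and 26.9) and was at least 1.74-fold higher. After normexp the Dusp5 difference was 0.07. So the phosphatase genes as a set show no common direction.

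Promoter windows, from 250 bases before to 50 bases after the annotated start, were held for 35 of the 49 genes in the RefSeq table of build GRCm38.p6 (44 windows). They were searched on both strands for letters bound by Gli proteins (GACCACCCA), by the repressor Cic that Erk inactivates (TGAATGAA or TCAATGAA) and by Ets factors (CCGGAAGT). None of the 44 windows held the Gli letters, which are in 0.253% of all 32851 windows. The Cic letters were in 2 windows, those of the inhibitors Spry2 and Spred3 (4.55%, against 2.03% of all windows), and the Ets letters in 2, those of Egf and Nf1 (4.55%, against 3.89%). A match describes the letters only, and the 4 genes differed by -0.11, 0.13, 0.51 and -0.01. The 100 bases that hold each match, all before the start, are shown on the gene's strand from 5′ to 3′ with the matched letters in capitals, because these are the windows of members in which a searched motif was found. The Spry2 match (chr14:105896820-105896919, minus strand) begins 54 bases before the start, that of Spred3 (chr7:29168648-29168747, minus strand) 10, that of Egf (chr3:129725087-129725186, minus strand) 45 and that of Nf1 (chr11:79339642-79339741, plus strand) 218.
Spry2: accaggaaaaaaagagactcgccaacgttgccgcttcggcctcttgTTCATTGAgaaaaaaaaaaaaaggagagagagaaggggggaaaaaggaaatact
Spred3: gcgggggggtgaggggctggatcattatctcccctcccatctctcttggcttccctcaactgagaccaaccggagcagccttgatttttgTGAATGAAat
Egf: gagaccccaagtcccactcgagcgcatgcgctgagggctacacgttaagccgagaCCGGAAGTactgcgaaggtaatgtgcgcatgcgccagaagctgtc
Nf1: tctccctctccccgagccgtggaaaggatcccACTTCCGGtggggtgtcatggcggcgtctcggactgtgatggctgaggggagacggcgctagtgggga

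The output genes of the relay were also nearly level. The Ets factors Etv1, Etv4 and Etv5 are induced by Fgf and Erk signals and in turn activate genes of growth and migration. Etv5 had signals of 28563 in the control and 30541 in the knockdown (-0.18 ± 0.20), and Etv1 of 15080 and 18050 (-0.02 ± 0.20; 0.12 with median scaling). Etv4 was lower by 0.47 on the log2 scale (-0.47 ± 0.20; 2168 and 1901), a size at least matched by 18.3% of all genes. Phlda1, an Erk-induced gene, went the other way at 0.19 ± 0.20 (14800 and 20443). The median of the 4 output genes was -0.10, and 0.04 with median scaling.

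Among the Ras-MAPK components, Nras had the widest difference on its brightest probe, and its probes disagreed. That probe had signals of 3900 in the control and 2996 in the knockdown (-0.66 ± 0.20, chromosome 3). The second Nras probe, also bright and carrying the same accession, had 2714 and 4213 (0.36 ± 0.20), so Nras has no settled direction, and the mean of both probes was -0.15. Hras was level at 3058 and 3486 (-0.09 ± 0.20). Nf1, the neurofibromin gene, whose product switches Ras off, gave -0.01 on each of its 2 probes (391.9 and 472.7 on the brighter).

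Of the kinases below Ras, Braf (1606 and 1804, -0.11 ± 0.20), Map2k1 (1307 and 1431, -0.15 ± 0.20) and Map2k2 (2249 and 2716, -0.01 ± 0.20) were level. Mapk3, which encodes Erk1, was higher by 0.46 ± 0.20, with 2274 in the control and 3789 in the knockdown. It kept this direction with normexp (0.49) and with median scaling (0.60), and 18.7% of all genes lay at least as far from 0. 6 of the 7 components lay below 0, 5 of them by 0.15 or less, and with median scaling Hras (0.05), Braf (0.03), Nf1 (0.13) and Map2k2 (0.13) lay above 0.

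Different probes of a gene gave a check within the same RNA. 18 members had several probes measured on both arrays, and for 13 of them (72.2%) all probes lay on the same side of 0, compared with 69.5% of the 5415 such genes at large. The median gap between a gene's highest and lowest probe was 0.19 for members and 0.16 for all genes. Fgf1, Fgfr1 and Egfr, each with 3 or more probes, lay below 0 on all of them; so did 2-probe genes such as Spred1, while Erbb2, Axl and Pdgfa lay above 0 on both. Nras and Nrg1 were the members whose probes took opposite signs with a gap over 0.5 (1.02 and 0.85). A gap as wide as that of Nras exceeds every difference reported here for a member measured on both arrays by its brightest probe.

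**Figure D4:**
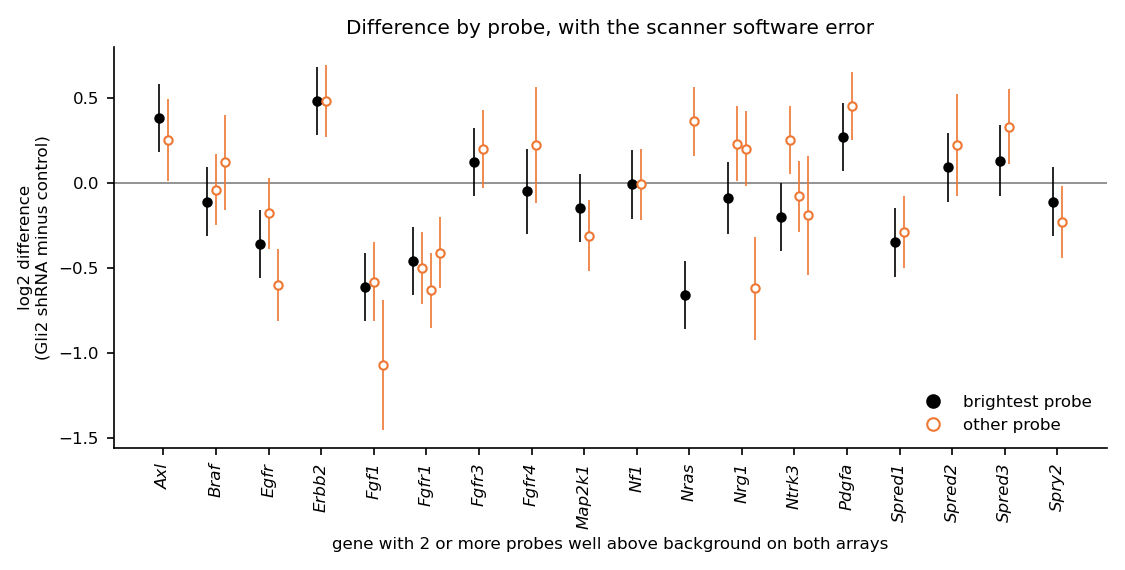
Scaled log2 difference (Gli2 shRNA minus control) of each probe well above background on both arrays, for the 18 genes with several such probes, with bars of the scanner software error. Filled black circles are the brightest probe and open orange circles the others; the Nras probes lie at -0.66 and 0.36, while all 4 Fgfr1 probes lie between -0.63 and -0.41.

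The wider pathway was described with a list of 118 further genes (receptors other than Eph receptors, ligands, adaptors, Ras proteins and kinases, and other feedback and Ets genes). Of these, 84 were measured on both arrays, 4 of them 2-fold higher and 2 lower, as were 1.84% and 1.79% of all genes. 35 of the 84 lay above 0 and 49 below, where all genes split into 7331 above and 7232 below. The median of the 84 was -0.13 (0.01 with median scaling), beside 0.00 for all genes (0.14 with median scaling). Dusp8, a phosphatase that acts mainly on Jnk and p38, was 2.48-fold higher (145.0 and 435.4) and its second probe also lay past 2-fold (1.11). Fgf11, an intracellular Fgf homologue, was 2.62-fold higher on its brightest probe (187.6 and 595.5) and its 2 other probes gave 1.06 and -0.27. Ror2, a Wnt5a receptor, was 2.13-fold higher (121.8 and 314.6), and Ltk 4.20-fold higher near background (13.8 and 70.3; 0.50 with normexp). Crkl, an adaptor that joins phosphorylated receptors to Ras and Rap exchange factors, was 2.09-fold lower (1540 and 893.6), with -0.71 on its second probe. Spry3 was 2.09-fold lower and dim (38.7 and 22.5; -0.53 with normexp). Epgn, an Egfr ligand measured on the knockdown array alone (2.78 and 34.5), was at least 2.23-fold higher. After normexp the Epgn difference was 0.43. With normexp, Fgf11 alone of the 6 genes measured on both arrays stayed past 2-fold (1.11), with Dusp8 at 0.98, Crkl at -0.98 and Ror2 at 0.87.

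How the scaling was done decided the sign of many small differences. 26 of the 40 members kept 1 sign with the 75th percentile and under normexp, median scaling, quantile normalization and cyclic loess, 15 of them higher and 11 lower, and 14 members did not. Median scaling raised the difference of every gene by 0.14, so that 29 of the 40 members lay above 0. Across all genes it moved the 2-fold calls from 268 higher and 260 lower to 384 and 176. Egfr (-0.37 to -0.22) and Fgfr1 (-0.46 to -0.33) were lower, and Fgfr3 (0.10 to 0.25) higher, under each of these 5 scalings.

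**Figure D5:**
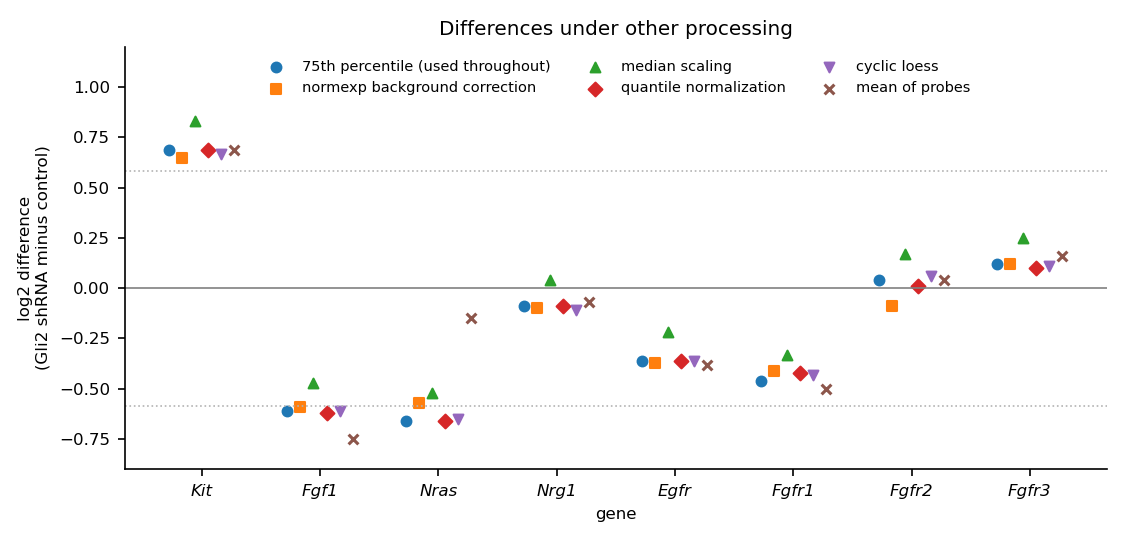
Scaled log2 difference (Gli2 shRNA minus control) of 8 members under the 75th percentile scaling used throughout and under 5 other ways of processing, each with its own marker. Dotted lines mark 1.5-fold; Kit lies above the upper line with each of them, Fgf1 crosses the lower line with median scaling, and Nras moves to -0.15 with the mean of its probes.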

How the data were processed

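RNA of 1 control shRNA and 1 Gli2 shRNA culture was labelled with Cy3 for Agilent arrays of 1 colour, per the labels. Per the file headers, the scanner files as deposited give background-subtracted processed intensities and their errors from Agilent Feature Extraction 12.1.0.3 (protocol GE1_1200_Jun14, grid build mm9). The authors' deposited table holds log2 values, with scale and centring unstated. Each column equalled the log2 processed intensity minus a constant (8.36 and 8.64), with medians of -3.54 and -3.68 over the probes used. These constants are close to log2 of the arrays' 75th percentiles (329.3 and 399.0). The deposited table is therefore nearly the scaling used throughout and not an independent check.

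Control spots and outlier spots (126 and 120) were left out, no spot was saturated, and spots of a probe were averaged as log2 values, which left 56595 probes. Each array was scaled to its 75th percentile. Probes were named by RefSeq accession through the GRCm38.p6 gene table, and a gene is represented by its brightest probe. Lower bounds for genes measured on 1 array use the lowest signal well above background of the other (12.8 and 15.2) or the probe's own value, if higher. The signals printed are unscaled, and the log2 differences are scaled.

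With 1 array a group, genes were counted past 2-fold and 1.5-fold, without tests. The counting was tested on simulated data with noise well below the software error, which checks the counting itself and not how reliable the calls are. Alternatives were normexp (offset 50, R 4.3.3, limma 3.58.1, on median signals, the files having no mean signal), median, quantile and cyclic loess scaling, no filter and a stricter filter on dim probes (4 times the lowest signal), the mean of probes, and the deposited table. Members in full are those past 1.5-fold, those with opposing probes and the receptors of EGF and bFGF; of other pathway genes, those past 2-fold. The members, lists and rules were chosen with earlier results of these data known. The precision is limited by the number of arrays.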

Additional observations from a re-analysis of the deposited data

How the results depend on the processing

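Of the members, Kit was past 1.5-fold and higher under all 8 alternatives, though the filters, the mean of probes and the deposited table could hardly move it. Fgf1 was past 1.5-fold and lower under all but median scaling, where no member was past it downward (0) and 4 were upward (Egf, Erbb2, Kit and Mapk3). With normexp and with the mean of probes 1 member was past 1.5-fold downward, Fgf1 alone. Without the filter on dim probes 4 members were 2-fold higher (Areg, Dusp5, Erbb3 and Erbb4, none well above background on the control array) and 6 were past 1.5-fold upward. No member was past 2-fold under the other 7. The ligand median was -0.10 with normexp. For all genes, 2-fold counts (higher and lower) were 67 and 100 with normexp, 769 and 2075 without the filter, and 147 and 143 with the stricter filter. Those past 1.5-fold were 874 and 953, against 436 and 449 with normexp, 1364 and 616 with median scaling, 1698 and 3807 without the filter, and 554 lower with the stricter filter. Of other pathway genes, 1 was 2-fold higher and 0 lower with normexp (6 and 2 past 1.5-fold). Lower ones past 2-fold numbered 0 with median scaling, 1 each with quantile normalization, cyclic loess, the stricter filter and the mean of probes, and 9 without the filter. Lower ones past 1.5-fold numbered 4 with median scaling, 5 with the stricter filter and 20 without the filter. The filters change which genes are counted, and median scaling shifts every gene by the same amount. The normexp offset of 50 compresses the differences of dim genes by design, and how much of the lower normexp counts comes from it was not tested. For the remaining alternatives the cause was not tested either. No replicate could be left out, and no paired analysis was possible because each group has 1 array. Signals near background limit Erbb3, Fgf2, Pdgfb, Dusp5, Tgfa, Mertk and Fgfr4.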
